A study of Mus musculus with 3 samples.

Results

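Nuclear pore and nuclear transport genes were taken as all probes whose gene symbol matched a rule on names. The names covered numbered nucleoporins (Nup), importins (Kpna, Kpnb or Ipo), exportins (Xpo) and transportins (Tnpo). They also covered Ran and factors of its cycle (Rangap1, Rcc1 or Nutf2), Ran-binding proteins (Ranbp) and mRNA export receptors (Nxf or Nxt). The rule found 71 probes for 51 genes, out of 16593 genes with a symbol on the array, and each gene was represented by its brightest probe (mean signal of the 3 arrays). Of the 51 genes, 36 had 1 probe and 15 had several.

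The nuclear pore is a channel through the nuclear envelope built from nucleoporins, some of which form its scaffold and others the mesh of flexible repeats that fills it. Importins bind cargo with a nuclear localisation signal and carry it inward, exportins carry cargo outward, and the GTPase Ran, loaded with GTP in the nucleus and stripped of it in the cytoplasm, sets the direction. The fertilised egg relies on carriers stored by the oocyte, since transcription factors and chromatin proteins made in the cytoplasm have to enter the new nuclei before the embryonic genome is switched on.

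The data are 3 Illumina BeadChip arrays (mouse-8) that were hybridised with RNA of 2-cell embryos of strain F1B6C3H (so spelled in the sample labels, and B6C3F1 in the methods), collected 26 hr after in vitro insemination. 2 arrays (replicates a and b, called 2-cell NSN-a and -b) held embryos from developmentally incompetent NSN oocytes, whose nucleolus is not surrounded by heterochromatin, and 1 array, 2-cell ctrl, held embryos from developmentally competent MII oocytes. By the study's methods the NSN oocytes were isolated from ovaries of females aged 4 to 6 weeks that had been injected with PMSG, a gonadotrophin, and were cultured to the MII stage. The control eggs are described as ovulated in the paper's background section, and its methods do not say how they were obtained. Sperm of males aged 5 months was used for both kinds of egg, and the RNA went through 2 rounds of amplification. For every value compared between the groups, the type of oocyte and its culture cannot be told apart. The number of embryos on each array and whether both 2-cell NSN arrays came from separate pools are not given in the sources used here, and their spread may thus be technical only. The control has no replicate.

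The signals are background-subtracted intensities in arbitrary units, negative where a probe fell under background. A probe counted as above background when its signal reached the level that corresponds to a detection p value of 0.01, a limit of 8.57 for 2-cell NSN-a, 8.28 for 2-cell NSN-b (an assumed value, scaled from that of 2-cell NSN-a) and 6.10 for 2-cell ctrl. By these limits 174 genes (1.05%) were above background on 2-cell NSN-a, 185 (1.11%) on 2-cell NSN-b and 932 (5.62%) on 2-cell ctrl. Among markers of oocytes and the maternal embryo, 4 of 14 were above background on each 2-cell NSN array and 10 of 14 on 2-cell ctrl, and of 9 genes of 2-cell genome activation none was on the 2-cell NSN arrays and 2 were on 2-cell ctrl. No marker of cumulus and granulosa cells (of 10), of sperm and testis (of 6) or of blood and endothelium (of 5) was above background on any array. These are bulk samples, so a smaller amount of RNA on an array and a lower level of a transcript in the embryo cannot be told apart.

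Only 3 of the 51 nuclear pore and transport genes were above background: Kpna6, Nup62 and Kpna1. Kpna6 was above background on all 3 arrays and was 1.68-fold higher in 2-cell NSN embryos. Nup62 and Kpna1 were above background in 2-cell ctrl embryos and on neither 2-cell NSN array. The share of genes that reached the limit of 2-cell ctrl, or the limits of both 2-cell NSN replicates, was 5.88% among the 51 genes and 5.73% among all genes on the array, so the share of the 51 genes was close to that of all genes.

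**Figure D1:**
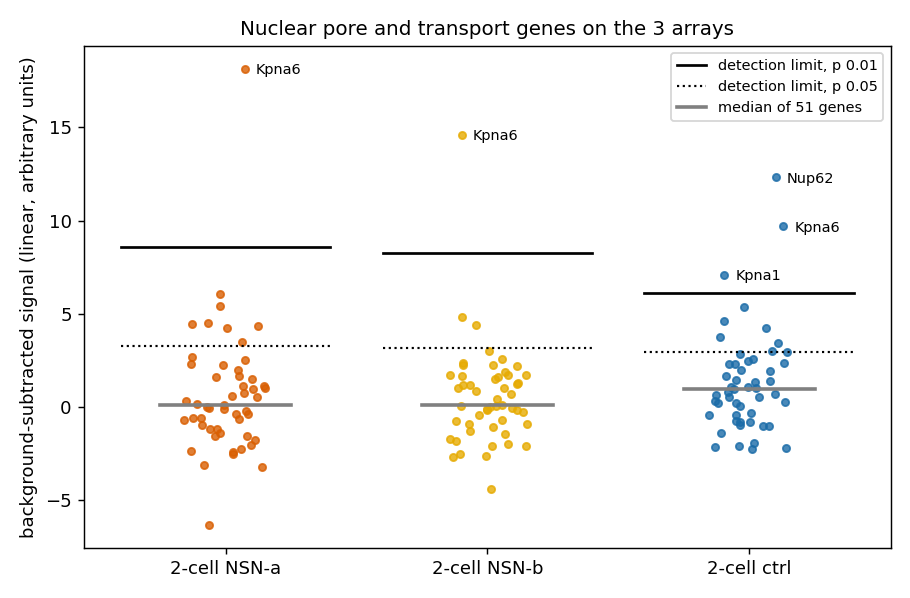
Background-subtracted signal (linear scale, arbitrary units) of each of the 51 genes on the 3 arrays, 1 point a gene. Solid and dotted black lines are the limits at detection p values of 0.01 and 0.05 and the grey line is the median of the 51 genes. Kpna6 stands above the solid line on all 3 arrays, with Nup62 and Kpna1 above it on 2-cell ctrl only.

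A gene was called higher or lower when the log2 mean of its 2-cell NSN signals, with those under a limit set to that limit, differed at least 1.5-fold from its 2-cell ctrl signal. By this rule 1 of the 3 genes above background was called higher and 0 were called lower. Over all 950 genes above background, 8.21% were called higher and 44.4% lower, and with 3 genes the group's split cannot be set apart from that. The median log2 difference was 0.25 over the 3 genes and -0.40 over the 950. The value of the 3 genes is that of Kpna1, which comes from the detection limits and not from a measured difference. There is no test of the control's own spread, and 2 arrays against 1 allow no exact permutation p value under 0.333.

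Kpna6 encodes importin alpha 7, an adaptor that links cargo carrying a classical localisation signal to importin beta. In the mouse, eggs without it give embryos that stop dividing at the 2-cell stage. Its signal was 18.1 and 14.6 on 2-cell NSN arrays a and b, against 9.70 on 2-cell ctrl. Both 2-cell NSN arrays were above the control, 1.87-fold on array a and 1.51-fold on array b. The mean in 2-cell NSN embryos was 16.4 ± 2.50 (SD, n = 2). limma was fitted to the 136 probes that reached the limit of every array. It had 1 residual degree of freedom, and the spread of the control was taken to equal that of the 2-cell NSN arrays. There Kpna6 differed by 0.75 on the log2 scale, with a standard error of 0.21 and an adjusted p of 0.0357 from limma. It was the only one of the 71 probes in that fit. In the same fit 43.4% of the probes passed an adjusted p of 0.05 as higher and 22.8% as lower, so Kpna6 was one of many probes called higher. These 136 probes had to reach 2-cell NSN limits that were higher than the control limit, a filter that favours probes bright on the 2-cell NSN arrays. Their median ratio to the control was 1.43 and 1.39 on 2-cell NSN arrays a and b, and how much of it comes from the filter was not tested. Relative to that shift, Kpna6 was 0.25 higher on the log2 scale (standard error 0.19, adjusted p = 0.365 from limma) and the call was lost, while 20.6% of the 136 probes were called higher and 26.5% lower. The higher signal of Kpna6 is therefore a difference against the control array as deposited, and was not shown against other detected probes. With log2(signal + 16) the difference was 0.33 and not called, but adding 16 to signals this low shrinks the fold, so that loss follows from the setting. With normexp and quantile normalization the log2 difference was 0.60 (adjusted p = 0.0241 from limma), in a fit that called 61.8% of the 136 probes higher and 6.62% lower.

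Nup62 encodes a nucleoporin of the central channel, whose flexible repeats are part of the permeability barrier. It gave -0.0608 and -0.0646 on 2-cell NSN arrays a and b, against 12.3 on 2-cell ctrl. Both 2-cell NSN signals lay near the median of their arrays (0.0443 and 0.0195 over all 25697 probes), that is, at background. Because the 2-cell NSN limits are high, this amounts to at least 1.46-fold lower, a bound just short of the 1.5-fold threshold. With the limits of a detection p value of 0.05 (3.30 and 3.18 for 2-cell NSN replicates a and b, and 2.94 for 2-cell ctrl) Nup62 was called at least 3.80-fold lower. It was also called lower with limits read from the spread of the signals under each array's median (at least 3.02-fold). The same call came with log2(signal + 16) (log2 difference of -0.82) and relative to the shift of the detected probes (at least 2.06-fold). Lower limits, and the division of 2-cell NSN values by that shift, could only widen the bound, so those calls are no further support. With normexp and quantile normalization the log2 difference of Nup62 was -0.18, short of the threshold. That setting adds an offset of 50 before log2, which shrinks differences between signals as low as these, so little can be read from the missed threshold. Nup62 was measured by 1 probe, as were Kpna6 and Kpna1.

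The promoter of Nup62 (from RefSeq, GRCm38.p6) is shown as the regulatory sequence of a gene that was above background in 2-cell ctrl embryos and on neither 2-cell NSN array. The 250 bases before its start site lie at chr7:44815838-44816087 on the plus strand, and capitals mark the CCAAT box, the binding word of the factor NF-Y, on either strand (CCAAT or ATTGG).
Nup62 promoter: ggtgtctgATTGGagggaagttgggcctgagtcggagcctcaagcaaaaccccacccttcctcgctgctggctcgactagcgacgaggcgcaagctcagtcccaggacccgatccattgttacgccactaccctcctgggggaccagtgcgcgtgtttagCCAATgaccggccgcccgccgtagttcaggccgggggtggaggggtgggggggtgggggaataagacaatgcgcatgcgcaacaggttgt
This stretch was 63.2% G or C and held 17 CpG pairs, 1 CCAAT that began 90 bases before the start site and 1 ATTGG that began 242 bases before it. The CCAAT word on either strand was present in 18 of the 42 promoters matched by symbol to the 51 genes (42.9%) and in 34.5% of all 27025 promoters of the table, 1 for each gene. The octamer ATGCAAAT, the word bound by OCT4 and its relatives, was searched on both strands too, and it was present in 0 of the 42 promoters and in 1.61% of all. These matches describe letters in a window and not bound sites.

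Kpna1 encodes importin alpha 5, an adaptor of the same family as Kpna6. It gave 2.71 and -0.903 on 2-cell NSN arrays a and b, against 7.10 on 2-cell ctrl. The 2-cell NSN signals were both under the control, but the control signal lay under the 2-cell NSN limits, so no fold can be given at a detection p value of 0.01. At a detection p value of 0.05 Kpna1 was called at least 2.19-fold lower, and with limits from the spread under the median at least 1.74-fold lower. Kpna6 and Kpna1, both importin alpha adaptors, thus lay on opposite sides of the control in the deposited signals. The difference between them was not tested.

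The other importin alpha genes were under the limit on every array. The values of those given next were chosen after their signals were seen. Kpna7, an importin alpha made mainly in the oocyte, gave -0.614 and 0.0383 on 2-cell NSN arrays a and b, against 2.82 on 2-cell ctrl. Kpna2, which is abundant in dividing cells, gave -1.40 and -1.05 on 2-cell NSN arrays a and b, against -1.02 on 2-cell ctrl. Kpna3 and Kpna4 were no brighter than 0.410 on any array. Levels of different probes cannot be ranked against each other, and a transcript under a limit is not shown to be absent.

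**Figure D2:**
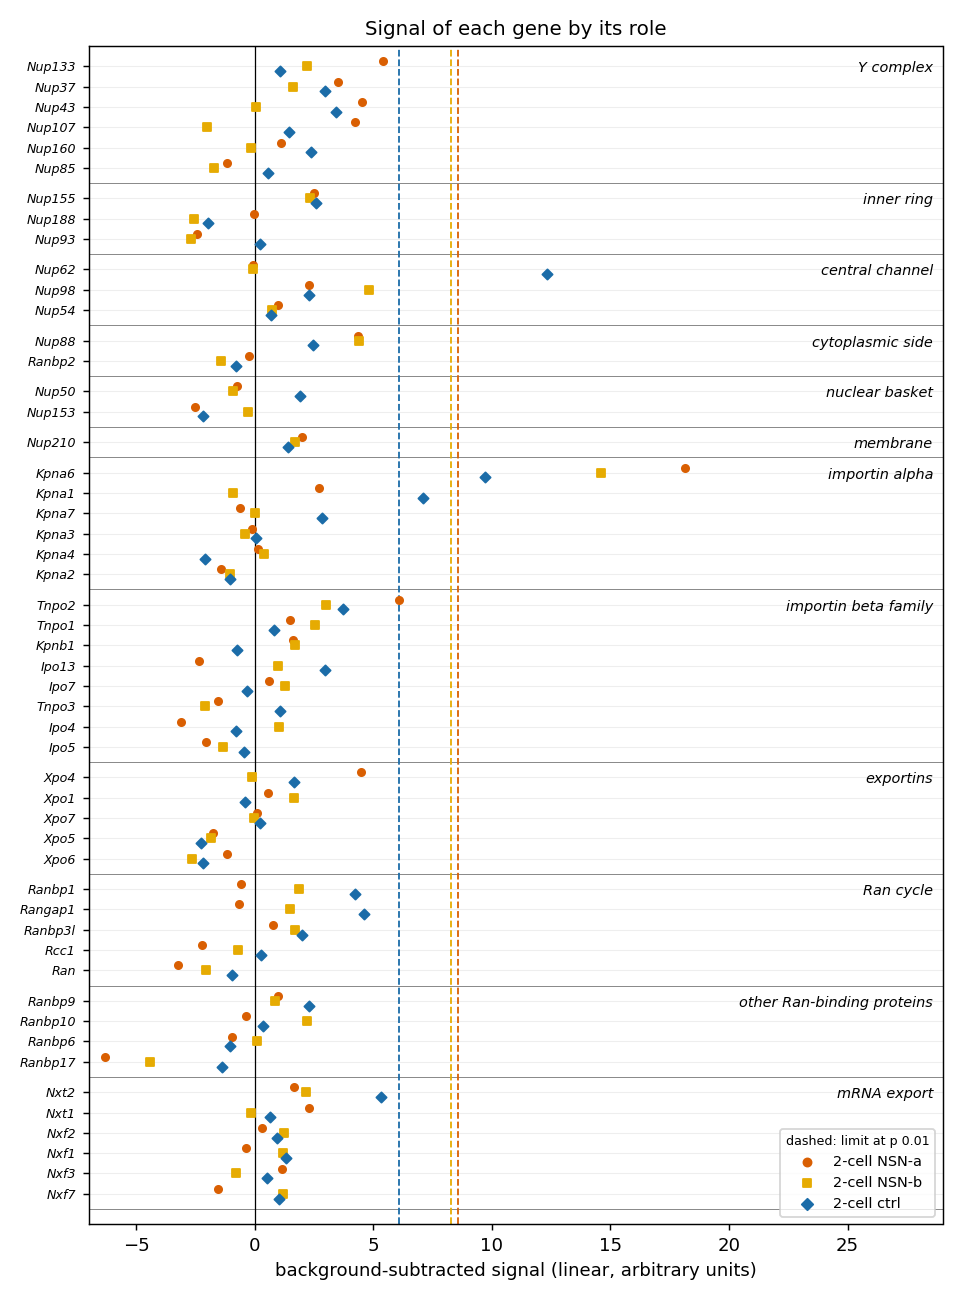
Background-subtracted signal (linear scale, arbitrary units) of the 51 genes on 2-cell NSN-a (circles), 2-cell NSN-b (squares) and 2-cell ctrl (diamonds), grouped by role, with each array's limit at a detection p value of 0.01 as a dashed line of its colour. Outside Kpna6, Nup62 and Kpna1, no gene reaches a line of its own array.

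The 48 genes under the limit on all 3 arrays gave signals from -6.32 to 6.09 on 2-cell NSN-a, from -4.40 to 4.84 on 2-cell NSN-b and from -2.24 to 5.34 on 2-cell ctrl, so that none has a fold at the limits of 0.01. The 6 with the highest mean signal were Tnpo2, Nup88, Nup98, Nxt2, Nup133 and Nup37. Tnpo2, a transportin that imports RNA-binding proteins, gave 6.09 and 3.02 on 2-cell NSN arrays a and b, against 3.74 on 2-cell ctrl, so the control lay between them. Nup88, a nucleoporin of the cytoplasmic side, gave 4.35 and 4.40 on the same 2-cell NSN arrays, against 2.46 on 2-cell ctrl. This brightest probe was higher on both, but it was the only 1 of 4 that reached a limit at a detection p value of 0.05. At that limit it was at least 1.49-fold higher, short of the threshold. The other probes of Nup88 differed in order, with 0.304 and 1.70 against 2.29, 0.354 and 0.348 against 0.264, and 0.484 and -0.815 against -2.07.

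Nup98, a nucleoporin with flexible repeats that also binds RNA export factors, gave 2.27 and 4.84 on 2-cell NSN arrays a and b, against 2.30 on 2-cell ctrl. Its other probe gave -1.06 and -1.94 against -1.51, under 0 on every array. Nxt2, a relative of the mRNA export cofactor Nxt1, gave 1.64 and 2.19 on 2-cell NSN arrays a and b, against 5.34 on 2-cell ctrl, and was lower on both. At a detection p value of 0.05 it was called at least 1.65-fold lower. Nup133, of the Y complex that forms the outer rings of the pore, gave 5.40 and 2.23 on the 2-cell NSN arrays, against 1.06 on 2-cell ctrl. Its other probes differed in order, with 2.64 and 0.896 against -0.496, and -0.329 and -1.73 against 0.864. Nup37, of the same complex, gave 3.51 and 1.62 on the 2-cell NSN arrays, against 2.95 on 2-cell ctrl. The other probe of Nup37 gave 0.527 and 0.583 against 2.35, so there both 2-cell NSN arrays lay under the control.

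By role, no gene of the scaffold reached a limit of 0.01. In the Y complex, 4 genes (Nup107, Nup133, Nup37 and Nup43) reached a limit of 0.05 on at least 1 array. All 4 did so on 2-cell NSN-a and none on 2-cell NSN-b, while Nup37 and Nup43 also did on 2-cell ctrl. Of all genes on the array, 9.03% reached the limit of 0.05 on 2-cell NSN-a. The count of 4 thus rests on 2-cell NSN-a, and no test was made of it. The 6 genes of the Y complex (Nup107, Nup133, Nup160, Nup37, Nup43 and Nup85) ranged from -1.18 to 5.40 on 2-cell NSN-a, from -2.00 to 2.23 on 2-cell NSN-b and from 0.554 to 3.41 on 2-cell ctrl. Nup107, chosen after its signals were seen, gave 4.24 and -2.00 on 2-cell NSN arrays a and b, against 1.46 on 2-cell ctrl, so the 2-cell NSN arrays lay on either side of the control. The 3 genes of the inner ring (Nup155, Nup188 and Nup93) reached 2.50 on 2-cell NSN-a, 2.36 on 2-cell NSN-b and 2.59 on 2-cell ctrl, all 3 values being those of Nup155. The less bright probes of Nup155 gave no more than 0.506 on any array. Single values of Nup155, Nup153, Nup50 and Nup210 were, likewise, chosen after they were seen. Nup153 and Nup50 of the nuclear basket, the cage on the inner face of the pore, were under 0 on both 2-cell NSN arrays and at -2.16 and 1.93 on 2-cell ctrl. The less bright probes of Nup50 gave 0.949 and -0.775 against -0.610 on 2-cell ctrl, and 0.232 and -1.86 against -0.107. Nup210, which spans the membrane, gave 2.00 and 1.70 on the 2-cell NSN arrays, against 1.40 on 2-cell ctrl.

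The general carriers were at background. Kpnb1, importin beta 1, which takes the importin alpha adaptors through the pore, gave 1.62 and 1.70 on 2-cell NSN arrays a and b, against -0.757 on 2-cell ctrl. Xpo1, the exportin of proteins with leucine-rich export signals, gave 0.560 and 1.64 on the 2-cell NSN arrays, against -0.411 on 2-cell ctrl. Its other probe gave 0.838 and -1.42, against 0.489, so there the control lay between the 2-cell NSN arrays. The other exportins (Xpo4, Xpo5, Xpo6 and Xpo7) ranged from -1.77 to 4.47 on 2-cell NSN-a, from -2.64 to -0.0182 on 2-cell NSN-b and from -2.24 to 1.66 on 2-cell ctrl. The 8 import receptors of the importin beta family, Kpnb1 and Tnpo2 among them, ranged from -3.09 to 6.09 on 2-cell NSN-a, from -2.08 to 3.02 on 2-cell NSN-b and from -0.798 to 3.74 on 2-cell ctrl.

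In the Ran cycle, Ran itself gave -3.22 and -2.06 on 2-cell NSN arrays a and b, against -0.971 on 2-cell ctrl, under background on every array. The genes given next were chosen after their signals were seen. Rangap1, which makes Ran hydrolyse its GTP in the cytoplasm, gave -0.644 and 1.49 on 2-cell NSN arrays a and b, against 4.63 on 2-cell ctrl. Ranbp1, which assists Rangap1, gave -0.564 and 1.89 on the 2-cell NSN arrays, against 4.24 on 2-cell ctrl. Both were lower on the 2-cell NSN arrays than on the control, and both were above the control limit at a detection p value of 0.05. For Ranbp1 this holds for the brighter of 2 probes. The other gave -1.14 and -1.82 on 2-cell NSN arrays a and b, against -1.92 on 2-cell ctrl, under every limit and in the opposite order. The bounds were at least 1.43-fold lower for Rangap1 and at least 1.31-fold lower for Ranbp1, short of the threshold. Rcc1, the exchange factor that loads Ran with GTP on chromatin, was no brighter than 0.268 on any array. The other Ran-binding proteins (Ranbp6, Ranbp9, Ranbp10 and Ranbp17) ranged from -6.32 to 0.984 on 2-cell NSN-a and from -4.40 to 2.23 on 2-cell NSN-b. On 2-cell ctrl they ranged from -1.38 to 2.29. The mRNA export receptors Nxf1, Nxf2, Nxf3 and Nxf7 and the cofactor Nxt1 were no brighter than 2.31 on any array.

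With the more lenient limits of 0.05, 11 of the 51 genes were above background (21.6%, against 15.0% of all genes), 3 of them lower (Nup62, Kpna1 and Nxt2) and 1 higher (Kpna6). Over all 2485 genes above background at that limit, 36.9% were lower and 8.41% higher. The 7 genes called in neither direction were Ipo13, Nup37, Nup43, Nup88, Ranbp1, Rangap1 and Tnpo2. When limma was run on the 1106 probes that passed in either group, 28.1% of them passed an adjusted p of 0.05 as higher and 55.6% as lower. Nup62 and Kpna1 entered that fit through 2-cell ctrl only, and both of their 2-cell NSN values were the limits, so their values in it (-0.55 and 0.25) are no test of these genes. Run without a filter on log2(signal + 16), with negative signals set to 0 first, limma called 0.0467% of all 25697 probes higher and 4.77% lower. Of the 71 probes it called 5 lower, Nup62 with a log2 difference of -0.82 (adjusted p = 0.0457 from limma) and those of Kpna3, Rcc1, Nup93 and Nup85 by less than 0.05. All 5 had negative signals on both 2-cell NSN arrays. Setting these to 0 made the replicates identical, so the adjusted p values of these probes are no test of the genes.

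Taken without regard to the limits, the 51 genes had a median signal of 0.118 on 2-cell NSN-a, 0.0921 on 2-cell NSN-b and 0.966 on 2-cell ctrl. Over all genes the medians were 0.372, 0.352 and 0.368 on the same arrays. Both 2-cell NSN arrays read under the control for 23 of the 51 genes (45.1%, against 35.0% of all genes) and over it for 12 (23.5%, against 31.7%). Most of these signals lie under the limits, where their order is not a measured order of transcripts, and no test was made.

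**Figure D3:**
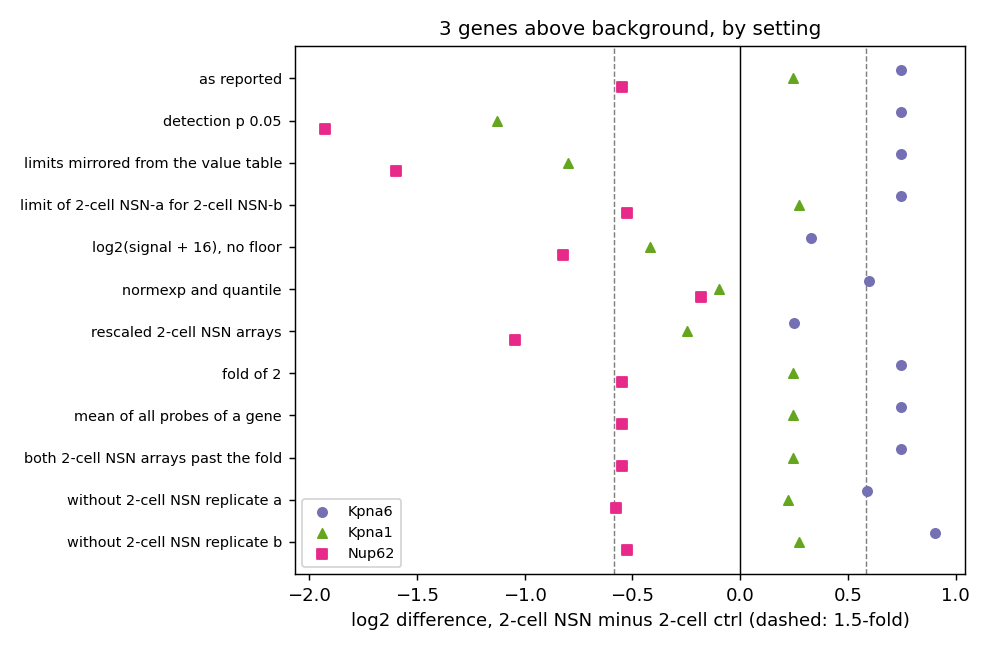
Log2 difference (2-cell NSN minus 2-cell ctrl) of Kpna6 (circles), Kpna1 (triangles) and Nup62 (squares) as reported and under each alternative setting, with dashed lines at 1.5-fold. Values of Nup62 and Kpna1 are bounds set by the detection limits wherever a floor was used. Kpna6 is to the right of 0 and Nup62 to the left of it in every setting, whereas Kpna1 is on both sides.

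Of 33 further genes of the pathway that the symbol rule leaves out, 29 were on the array and 2 were above background, both on 2-cell ctrl alone. Ahctf1, which encodes ELYS, the nucleoporin that brings the Y complex to chromatin when nuclei reform after mitosis, gave 5.15 and -0.678 on 2-cell NSN arrays a and b, against 15.2 on 2-cell ctrl. It was called at least 1.80-fold lower. With the limits of 0.05 the bound was 3.75-fold. The call was lost at a fold of 2 and with normexp and quantile (log2 difference of -0.13), where the offset of 50 shrinks differences between signals this low. Alyref2, a relative of the mRNA export adaptor Alyref, gave -0.264 and -0.541 on 2-cell NSN arrays a and b, against 10.7 on 2-cell ctrl, which is at least 1.27-fold lower and short of the threshold. Alyref2 was called lower with the limits of 0.05 (at least 3.30-fold), with limits from the spread under the median (at least 2.62-fold), with log2(signal + 16) (log2 difference of -0.74) and after rescaling (at least 1.79-fold). Lower limits and the rescaling could only widen the bound of Alyref2, so those calls are no further support. The other 27 genes, including the importin alpha exportin Cse1l and the THO complex genes on the array, were under the limit on every array. Of the 2 genes above background, 1 was thus called lower and 0 higher, where 5.73% of all genes were above background and, of those, 44.4% were lower and 8.21% higher.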

How the data were processed

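Background subtraction and a rank-invariant normalization by the authors, with a filter based on negative control beads, are given in their methods. BeadStudio 3 is named in the notes of the submitters on processing. What was deposited for 25697 probes is an intensity per array on a linear scale. The exact normalization between arrays is unknown, and the column medians were 0.0443, 0.0195 and 0.0916 for 2-cell NSN-a, 2-cell NSN-b and 2-cell ctrl. A further table was left aside because its 3 value columns carry names of no sample. Of the probes, 23978 have 1 gene symbol in the platform annotation and 1719 have none here.

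The detection limits were read from the deposited signals of probes that a table of the study pairs with a detection p value (896 of the 1188 rows held matched exactly 1 probe on both 2-cell NSN-a and 2-cell ctrl, within 0.002%). The limit of 2-cell NSN-b was assumed, by scaling that of 2-cell NSN-a by the root mean square spread of the signals under the median. Signals were floored at the limit and taken to log2. In the alternative with log2(signal + 16), negative signals were set to 0 before 16 was added, so a probe negative on both 2-cell NSN arrays had identical values there. The linear models used limma 3.58.1 (R 4.3.3) with a trend on mean signal, and p-values were adjusted after Benjamini and Hochberg. Python 3.11.15 and pandas 2.3.3 did the counting. Both were tested on simulated data. In the rescaled alternative the signals of a 2-cell NSN array were divided by the median of their ratios to 2-cell ctrl, taken over probes above every limit. As the 2-cell NSN limits were the higher ones, that set favours probes bright on the 2-cell NSN arrays. With 3 arrays, their number limits the precision.

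Genes were named if above background on any array, with the 6 brightest others and Ran, Kpnb1 and Xpo1, and the rest were to be given by role with their range. Single values given beyond this rule were chosen after the signals were seen. Members, lists and rules were chosen with earlier results of these data known. Older symbols were matched through RefSeq.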

Additional observations from a re-analysis of the deposited data

How the results depend on the processing

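The count of 3 genes above background became 11 with the limits of 0.05 and 9 with limits from the spread under the median (mirrored limits), and the count of 0 lower genes became 3 and 2. With log2(signal + 16) 1 gene was lower and 0 higher, after rescaling 1 was lower and 0 higher, and at a fold of 2, 0 were higher. The median log2 difference of 0.25 became -0.056 with the mirrored limits, -0.42 with log2(signal + 16), -0.096 with normexp and quantile and -0.25 after rescaling. The call of Kpna6 held in 8 of 11 alternatives, with a log2 difference of 0.59 without 2-cell NSN-a and 0.90 without 2-cell NSN-b, and that of Ahctf1 in 9 of 11. Several of these could not change a call. Kpna6 had 1 probe, above every limit, so other limits and the mean of all probes left its value as it was. Its 1.87-fold and 1.51-fold already met the rule that both arrays pass the fold. For Ahctf1, also with 1 probe, lower limits could only widen the bound. In limma 1 of the 71 probes passed, against 0 after rescaling, 3 over the 1106 probes that passed in either group (2 of them, Nup62 and Kpna1, from the limits) and 5 over all 25697 probes with log2(signal + 16). Those 5 had negative signals on both 2-cell NSN arrays, which were set to 0, so their replicates had no spread and their passing is no test. Over all genes, 573 were lower and 33 higher after rescaling, 69 and 63 with normexp and quantile (offset 50), 510 and 29 with log2(signal + 16), 917 and 209 with the limits of 0.05, 758 and 167 with the mirrored limits and 315 and 34 at a fold of 2, against 422 and 78 as reported. The wider limits and the higher fold change the counts by construction, and for the other settings the cause was not tested. Between the replicates of 2-cell NSN 1 of the 51 genes, Kpna6, could be compared and was not called, and of 217 genes above background on either array 16 were higher in a and 4 higher in b. No paired analysis was possible because the control has 1 array. Signal over background limits all values, as 48 of the 51 genes lay under the limit on every array.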
